A study of Mus musculus with 2 samples.

Results

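The genes described are 10 members of the bone morphogenetic protein (BMP) pathway: the ligands Bmp2, Bmp4 and Bmp7, the receptors Bmpr1a, Bmpr2, Acvr1 and Acvr2a, the signal carriers Smad1 and Smad5, and the antagonist follistatin (Fst). The peaks taken for them were all those of the authors' list whose summit, the position of greatest enrichment, lay within the RefSeq GRCm38 span of one of these genes. That rule gave 21 of the 21192 peaks in the list, in 7 of the 10 genes, out of 21900 protein-coding genes in the gene table. The samples were 1 ac4C immunoprecipitation library and 1 input control library, and both were made from polyA RNA of whole uteri that wild-type mice carried on gestational day 4. The labels gave no strain, age or number of animals. N4-acetylcytidine (ac4C) is an acetylated cytidine of RNA, and in acRIP-seq an antibody against it enriches the RNA fragments that carry it, which are sequenced and set against unenriched RNA. With 1 library of each kind there is no replicate check, and no test between genes was made.

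BMP ligands are secreted dimers that bring together type I receptors (here Bmpr1a and Acvr1) and type II receptors (here Bmpr2 and Acvr2a), which are serine/threonine kinases. The activated type I receptor phosphorylates Smad1 and Smad5, which enter the nucleus with Smad4 and act on genes such as those of the Id family. Follistatin binds activins and some BMPs and keeps them from their receptors. In the mouse uterus Bmp2 is known for its part in the change of stromal cells into decidual cells after the embryo attaches.

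The tissue label was checked against marker genes. A peak was found in 5 of 6 epithelial markers (Epcam had none), in 6 of 6 stromal markers and in 5 of 5 markers of the myometrium. Of 5 embryo markers 0 held a peak, and of 5 blood and immune markers 2 did (Cd3e and Lyz2, at a fold enrichment of 6.96 and 2.11). By the same rule 30.7% of all protein-coding genes held a peak. Lists this short cannot set 0 of 5 or 2 of 5 apart from that share. RNA came from all cells of the organ, so fewer cells of a type and less RNA per cell cannot be told apart, and neither can the cell types in which a member carried the mark.

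When the gene spans were widened by 1000 bases on each side, 1 further peak came in, and its fold enrichment was greater than that of any of the 21. It lay upstream of Bmpr2, the type II receptor of BMPs, on chromosome 1 from 59763467 to 59764245. Its last base was 33 bases short of the first base of the RefSeq span, and its summit lay 431 bases before that start. The bases upstream of Bmpr2 are shown because the peak covers 217 of the 250. Those of Acvr2a, the other type II receptor, are shown beside them because no peak touched that gene. Both run 5′ to 3′ on the strand of the gene and end at the base before the listed start. Capitals mark the bases inside the peak, and the Acvr2a sequence has none. They are RefSeq sequences of GRCm38.p6, at chr1:59764029-59764278 on the plus strand and chr2:48813859-48814108 on the plus strand.

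Bmpr2: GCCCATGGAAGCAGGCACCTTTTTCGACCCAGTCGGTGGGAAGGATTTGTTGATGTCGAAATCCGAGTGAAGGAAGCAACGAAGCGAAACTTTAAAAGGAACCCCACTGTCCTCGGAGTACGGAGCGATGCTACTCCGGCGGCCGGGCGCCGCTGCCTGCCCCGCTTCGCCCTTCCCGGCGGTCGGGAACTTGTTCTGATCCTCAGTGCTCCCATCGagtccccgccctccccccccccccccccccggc

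Acvr2a: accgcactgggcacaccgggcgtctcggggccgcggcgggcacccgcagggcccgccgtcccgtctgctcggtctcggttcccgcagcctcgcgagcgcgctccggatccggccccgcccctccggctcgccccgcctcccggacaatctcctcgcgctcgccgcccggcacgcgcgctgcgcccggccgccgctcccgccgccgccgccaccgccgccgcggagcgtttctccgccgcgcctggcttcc

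Cytidine made up 36.8% of the 250 bases upstream of Bmpr2, 30.4% of the 217 bases inside the peak, and 50.4% of the bases upstream of Acvr2a. The median over 21263 such windows of 17492 protein-coding genes was 27.2%. The CXX repeat, in which a C is followed by any pair of bases, has been linked with ac4C. It was searched as CNNCNNCNNCNN with overlapping matches counted. On the strand of the gene it occurred 16 times upstream of Bmpr2, of which 3 lay wholly inside the peak, and 21 times upstream of Acvr2a. On the other strand it occurred 2 and 4 times. Among the other members with no peak, Bmpr1a had 38.4% cytidine and 16 such matches on its strand, and Bmp4 26.8% and 2. At least 1 match on either strand was present in 86.4% of all windows, so presence alone could not set a gene apart. The counts of Bmpr2 and Acvr2a on the strand of the gene were above the median of 2 over all windows. The greater of these 2 counts was that of Acvr2a, which had no peak. The windows end before the listed start, and outside peaks it is not known whether their bases were transcribed. A high count without a peak therefore does not bear on the link of the repeat with ac4C. Of the windows, 429 (2.02%) shared at least 1 base with a peak. These had a median of 31.6% cytidine and 4 matches on the strand of the gene, against 27.2% and 2 in the windows with no peak. On the other strand the medians were also 4 and 2, so this difference was not particular to the strand of the gene. G and C together had a median of 65.6% in the windows with a peak and 55.2% in those without.

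Peaks were present in 7 of the 10 members (70%), and 30.7% of all protein-coding genes held a peak by the same rule. Both Smads and follistatin held at least 1, as did Bmp2 and Bmp7 of the 3 ligands and Bmpr2 and Acvr1 of the 4 receptors. Bmp4, Bmpr1a and Acvr2a held none. Longer genes held peaks more often in the list as a whole, so the members were also read by span. Of the 7 members with spans of 30 to 130 kb, 5 held a peak, against 38.6% of the 5759 protein-coding genes in that range. Of the 3 members of 5 to 15 kb, 2 did, against 29.6% of 5069. Transcript abundance was not matched. At least 2 peaks were found in 4 members (Bmp2, Bmp7, Smad1 and Smad5), against 17.9% of all protein-coding genes.

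Peaks were sparse in the 4 receptor members for the length of these genes. These covered 415.6 kb in all and held 2 peaks, which is 0.0481 peaks per 10 kb, without the peak just upstream of Bmpr2. The 3 ligands held 8 peaks in 90.2 kb (0.887 per 10 kb), the Smads 10 peaks in 100.4 kb (0.996 per 10 kb) and follistatin 1 peak in 6.73 kb (1.49 per 10 kb). Over all protein-coding genes there were 0.195 peaks per 10 kb. The 11 receptors and co-receptors of the pathway that are not members held 38 peaks in 959.4 kb (0.396 per 10 kb), so the low density was not shared by receptors in general. By gene the density was 1.86 peaks per 10 kb in Bmp2, 1.31 in Smad1, 0.830 in Bmp7 and 0.508 in Smad5, against 0.0879 in Bmpr2 and 0.0831 in Acvr1. The spans include introns, whose share of each gene is not known here.

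The strength of each peak is given as the fold enrichment that the authors' peak caller wrote for its summit, a ratio of fragments over background. The 95% interval beside it is the exact Poisson interval of the number of fragments recovered at the summit and covers counting error of the immunoprecipitation only. The 21 member peaks had a median fold enrichment of 6.19 (2.19 to 11.2), on 8 to 55 fragments over backgrounds of 0.317 to 12.7 fragments. The whole list had a median of 5.58. Below that median lay 8 of the 21 (38.1%), against 50% of the list by construction. By role the medians were 7.24 for the 8 ligand peaks, 5.73 for the 10 Smad peaks, 5.87 for the 1 follistatin peak and 4.85 for the 2 receptor peaks. The ranges of the ligand peaks (5.41 to 11.2) and the Smad peaks (2.19 to 9.15) overlapped. The background also differed, with a median of 1.01 fragments at the ligand peaks and 3.98 at the Smad peaks. In the whole list fold enrichment fell as background rose, from a median of 6.48 at 0.5 to 2 fragments to 4.61 at 5 to 10 fragments, and the part of background in the difference between roles was not tested.

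**Figure D1:**
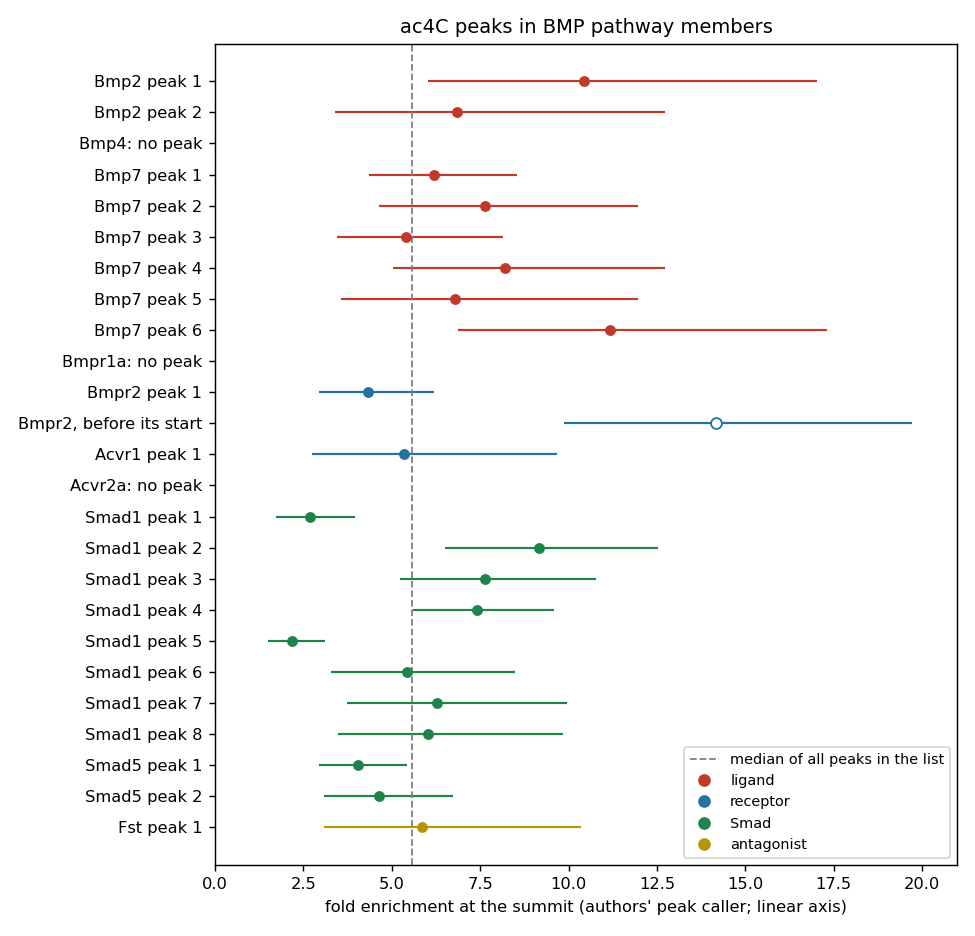
Fold enrichment at the summit of each peak in the 10 members, numbered along the chromosome within a gene and coloured by role, with bars for the 95% Poisson interval of counting error. The open point is the peak before the start of Bmpr2, at 14.2, and the dashed line is the median of all peaks, 5.58.

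At the highest peak of each gene, the median over the 7 members was 5.87, against 6.61 over all 6717 protein-coding genes with a peak, an order that turned under 5 of the 9 alternatives. It was 9.79 against 8.47 with a −log10 q of at least 10, 9.79 against 7.998 without peaks below the median fold, and 7.51 against 6.64 with summits in exactly 1 protein-coding gene. Both values of 9.79 were over 4 members and the 7.51 over 6, since the other members then held no peak. The filter on fold also selected on the value compared, so these turns came with a changed set of members. With the median over the peaks of a gene it was 5.87 against 5.48, and with spans widened by 1000 bases 9.15 against 6.61. The order was Bmp7 (11.2), Bmp2 (10.4), Smad1 (9.15), Fst (5.87), Acvr1 (5.36), Smad5 (4.64) and Bmpr2 (4.33). Neighbours in this order had overlapping intervals throughout. The interval of Bmp7 (6.86 to 17.3) lay wholly above those of Smad5 (3.09 to 6.72) and Bmpr2 (2.93 to 6.20). This holds only as far as counting error of the immunoprecipitation goes. The interval of Smad1 (6.52 to 12.5) lay above that of Bmpr2 and overlapped the upper end of that of Smad5. With the peak just upstream counted for Bmpr2, the receptor stood first at 14.2. Without peaks wider than 2 times the median width, Bmp7 stood at 8.21 and Bmp2 at 6.83, below Smad1 at 9.15. With the median over the peaks of a gene, Bmp2 stood at 8.63, Bmp7 at 7.21 and Smad1 at 6.15. The highest peak was taken from 8 in Smad1 and 6 in Bmp7, whereas Fst, Acvr1 and the span of Bmpr2 held 1 each.

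Among the ligands, Bmp2 (NCBI gene 12156), the ligand most closely tied to decidual change, held 2 peaks on chromosome 2 within a span of 10.7 kb. The stronger, from 133552495 to 133553248, stood at 10.4 (95% interval 6.02 to 17.0) on 14 fragments over a background of 0.438. Its summit was 660 bases from the lower-coordinate end of the span. The weaker, from 133554340 to 133554690, stood at 6.83 (3.38 to 12.7) on 8 fragments, at the lowest background of the list, 0.317. That lowest background, within 0.001 fragments, was shared by 619 peaks (2.92% of the list), and this was the 1 member peak among them. The summits lay 1777 bases apart, the intervals overlapped, and the remaining span of Bmp2 held no summit. A fold enrichment of 10.4 was greater than that of 91.3% of the peaks in the list.

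Bmp7 (NCBI gene 12162), a ligand that acts through Acvr1 and Acvr2a among other receptors, held 6 peaks spread over its 72.3 kb on chromosome 2. That many or more were found in 14.1% of genes with a peak. The strongest, from 172939028 to 172940451, was also the widest member peak, at 1424 bases. It stood at 11.2 (6.86 to 17.3) on 18 fragments, and its summit was 489 bases from the upper-coordinate end of the span. The peak nearest to the lower end, from 172869727 to 172870455, stood at 6.19 (4.36 to 8.54) but held the most fragments of the gene, 35, over a background of 4.81. The 4 between them ranged from 5.41 to 8.21, on 10 to 21 fragments. All 6 intervals overlapped, so the peaks of Bmp7 were not told apart in strength at this depth. The background was highest near the lower end and 0.700 fragments near the upper end.

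Bmp4 (NCBI gene 12159; chromosome 14, 46383525 to 46390669, minus strand) held no summit. The nearest summit outside its span was 298992 bases away. The gene is of a size with Bmp2 and Fst, at 7.15 kb, and the background within it was not given in the list. No enrichment was called in Bmp4, which does not show that it was absent. The weakest fold enrichment that entered the list at a background of 0.5 to 2 fragments was 3.17. Whether Bmp4 had such a background is not known.

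Among the receptors, Bmpr2 (NCBI gene 12168; chromosome 1, 59764279 to 59878081, plus strand) held 1 summit in a span of 113.8 kb. That peak, from 59867277 to 59867490, lay 103141 bases from the start, at 90.6% of the span. It stood at 4.33 (2.93 to 6.20) on 28 fragments over a background of 5.69. The peak before the start, whose sequence is given above, stood at 14.2 (9.88 to 19.7) on 33 fragments over a background of 1.40. It was stronger than 97.0% of the list, and its interval did not overlap that of the peak inside the gene. No gene of the table covered its summit, and the nearest gene other than Bmpr2 was Nop58, at 52338 bases. A summit in the 1000 bases before the start was found in 1 of the 7 members with a listed strand, against 1.82% of 17492 protein-coding genes. The list gave no strand, so the strand of the RNA under this peak is unknown.

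Acvr1 (NCBI gene 11477; chromosome 2, 58446438 to 58566828, minus strand), a type I receptor, held 1 peak at the opposite place. Its summit lay 223 bases downstream of the start, and the remainder of the 120.4 kb held none. The peak, from 58566508 to 58566707, had the smallest width of the list, 200 bases. It stood at 5.36 (2.74 to 9.69) on 9 fragments over a background of 0.867, with a −log10 q of 4.78. Its summit also lay within the span of Upp2, a uridine phosphorylase gene that overlaps the start of Acvr1. It was the only member summit inside a second protein-coding gene, and without strand the RNA of Acvr1 and of Upp2 could not be told apart there. With summits in exactly 1 protein-coding gene, 6 members held a peak.

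Bmpr1a (NCBI gene 12166; chromosome 14, 34411061 to 34503336) and Acvr2a (NCBI gene 11480; chromosome 2, 48814109 to 48903264) held no summit. Their spans, 92.3 and 89.2 kb, were longer than that of Bmp7, which held 6. The nearest summits outside them were 34622 and 46730 bases away. Bmpr1a and Acvr1 are type I receptors, and Bmpr2 and Acvr2a type II receptors, so each type had 1 member with a peak and 1 without.

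**Figure D2:**
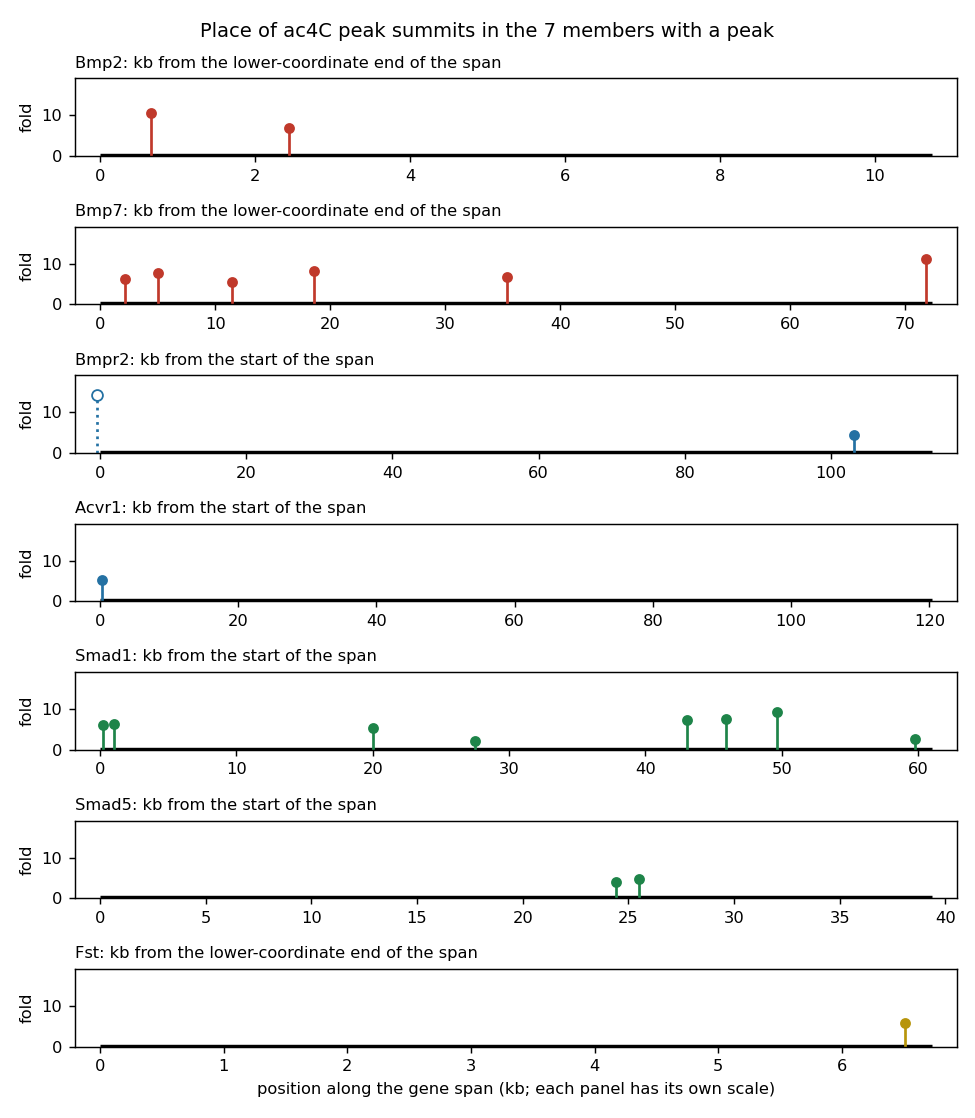
Position of each summit along the span of the 7 members with a peak, in kb from the listed start or, where the tables give no strand, from the lower-coordinate end. Stem height is fold enrichment, and the open point before Bmpr2 is the peak whose summit lies 431 bases before its start.

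Among the Smads, Smad1 (NCBI gene 17125; chromosome 8, 79338395 to 79399428, minus strand) held the most peaks of any member, 8, in 61.0 kb. Of all protein-coding genes with a peak, 7.96% held 8 or more. Along the gene the first summits lay 184 and 1017 bases from the start, at 6.03 (3.48 to 9.84) and 6.28 (3.75 to 9.97). The next lay 19986 and 27480 bases from it, at 5.42 (3.28 to 8.50) and 2.19 (1.49 to 3.11). A group of 3 followed between 43025 and 49636 bases, at 7.40 (5.61 to 9.59), 7.63 (5.23 to 10.8) and 9.15 (6.52 to 12.5). The last summit, 59778 bases from the start and 1255 from the end of the span, stood at 2.68 (1.74 to 3.96).

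The peaks of Smad1 thus differed among themselves by more than counting error of the immunoprecipitation, with the background taken as known. The intervals of the group of 3 lay wholly above those of the peaks at 2.19 and 2.68. Those weak peaks had the highest backgrounds of the gene, 12.7 and 7.97 fragments, and −log10 q of 2.15 and 2.90, the lowest among member peaks. The deepest member summit was also in Smad1, from 79356124 to 79356615, with 55 fragments over 6.57 and a −log10 q of 28.0, the highest among the 21. The strongest, from 79349682 to 79349921, held 37 fragments over 3.15. The median over the 8 peaks was 6.15.

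Smad5 (NCBI gene 17129; chromosome 13, 56703010 to 56742378, plus strand), which carries the same signal, held 2 peaks. Their summits lay 24436 and 25493 bases from the start, 1057 bases apart, at 62.1% and 64.8% of the span. The first, from 56727298 to 56727566, stood at 4.05 (2.94 to 5.43) on 42 fragments over 9.63. The second, from 56728329 to 56728528, stood at 4.64 (3.09 to 6.72) on 26 fragments over 4.81. Both lay below the median of the list. Of the 3 listed starts of Smad5, the nearest to a summit was 23778 bases from it, whereas the nearest summit of Smad1 was 184 bases from its start. The highest peak of Smad1 and that of Smad5 had intervals that overlapped between 6.52 and 6.72.

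**Figure D3:**
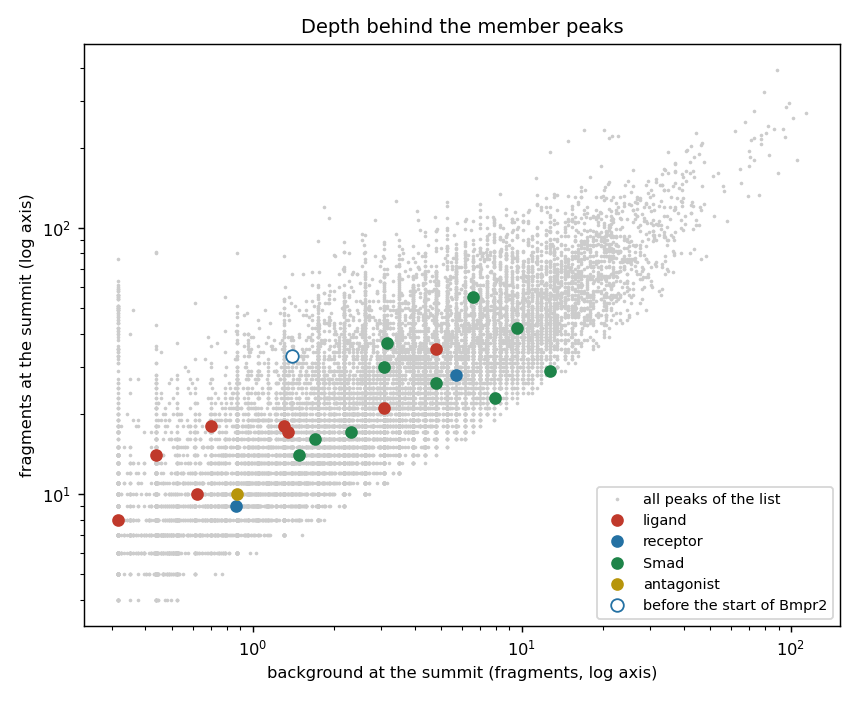
Fragments at the summit against background for all 21192 peaks (grey) and the 21 member peaks (coloured by role), both on log axes. The Smad1 peaks at backgrounds of 7.97 and 12.7 lie at the lower edge of the cloud, and the peak before Bmpr2 (open) lies toward its upper edge.

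The antagonist Fst (NCBI gene 14313; chromosome 13, 114452262 to 114458989) held 1 peak, from 114458617 to 114458876. It stood at 5.87 (3.09 to 10.3) on 10 fragments over a background of 0.875, close to the median of the list. Its summit lay 221 bases from the upper-coordinate end of the 6.73 kb span. The lncRNA gene Gm41074 also covered this summit, and the strand of the fragments is unknown.

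Several member summits lay close to an end of the gene. Within 1000 bases of an end were 5 of the 21 summits (23.8%), in Bmp2, Bmp7, Acvr1, Smad1 and Fst, against 20.1% of the 19892 summits in protein-coding genes. By gene, 5 of the 7 members with a peak had such a summit, against 50.6% of 6717 genes. The share of summits was thus near that of the list. For the 7 members with a listed strand, 2 (Acvr1 and Smad1) had a summit in the first 1000 bases, against 8.33% of 17492 genes. The strands of Bmp2, Bmp7 and Fst were not in the tables used. Exons were not told from introns, so the peaks were not placed in coding sequence or untranslated regions.

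Of 55 other genes of the BMP and TGF-beta pathways, 34 held a peak (61.8%), against the 30.7% of all protein-coding genes. At least 2 peaks were found in 23 (41.8%), against 17.9% of all protein-coding genes. Neither span nor transcript abundance was matched, and the genes were chosen with earlier results of these data known. Their highest peaks had a median of 7.24, against 6.61 for all genes with a peak, and 22 of the 34 lay above the latter. Peaks were found in 6 of 7 targets, 5 of 6 Smads, 4 of 6 regulators, 7 of 11 receptors, 7 of 11 antagonists and 5 of 14 ligands.

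Among the other receptors and co-receptors, the highest values were those of Eng (endoglin, a co-receptor of endothelial cells) at 14.4 (11.2 to 18.4), Rgmb at 14.4 (10.4 to 19.4) and Rgma at 11.1 (8.42 to 14.5), the last both BMP co-receptors. Eng held 12 peaks in 36.1 kb and Tgfbr3 10 in 183.1 kb, the most of these genes. Next came 7 genes with 5 peaks each, namely Tgfbr2, Smad3, Smad4, Smad6, Nbl1, Ski and Zfp423. The type I receptors Bmpr1b, Acvr1b, Acvr1c and Tgfbr1 held none. The intervals of Eng and Rgmb lay above those of Bmpr2 and Acvr1 within their spans, and overlapped that of the peak before Bmpr2.

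The inhibitory Smads stood highest of the other Smads, with Smad7 at 11.7 (7.46 to 17.6) and Smad6 at 9.92, followed by Smad3 at 6.40. Smad4, the partner of Smad1 and Smad5, held 5 peaks up to 5.99, and Smad9 held none. Of the antagonists, Nog (noggin, which binds BMPs) stood at 12.8 (8.31 to 18.9), Twsg1 at 9.11 and Bambi, a decoy receptor, at 8.12. These intervals overlapped that of follistatin. Chrdl1, Grem1, Sostdc1 and Bmper held none.

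Of the other ligands, Gdf7 stood at 9.67 (7.93 to 11.7), with 3 peaks over 35.0% of its 4.04 kb span, Bmp6 at 6.07 and Gdf11 at 4.98. Bmp3, Bmp5, Bmp8a, Bmp8b, Bmp15, Gdf2, Gdf5, Gdf6 and Inhba held none. Of the targets, the homeobox gene Msx1 stood at 13.6 (10.7 to 17.0), and Id3 and Id4, inhibitors of basic helix-loop-helix factors, stood at 12.2 (8.84 to 16.3) and 8.72 (5.66 to 12.9). Msx2 held none. Of the regulators, the Smad corepressor Ski stood at 9.35 (7.46 to 11.6), Zfp423 at 7.55 and the ubiquitin ligase Smurf1 at 7.32, and Smurf2 and Skil held none.

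**Figure D4:**
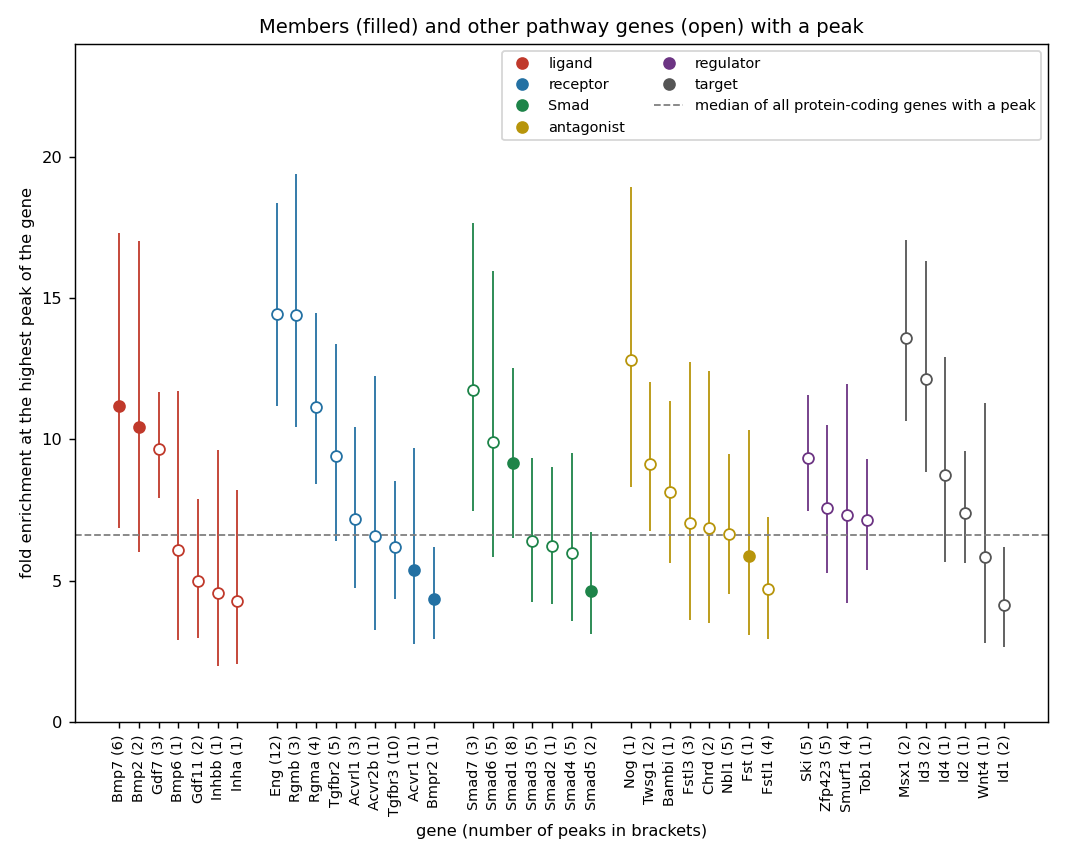
Fold enrichment at the highest peak of each member (filled) and each other pathway gene (open) that held a peak, grouped by role, with the number of peaks in brackets and bars for the 95% Poisson interval. Bmp7 and Bmp2 lead the ligands, while Acvr1 and Bmpr2 are the lowest receptors within their spans, and the dashed line, at 6.61, is the median over protein-coding genes that held one.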

How the data were processed

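The data were 1 list of peaks in the narrowPeak layout. The submitters' processing notes name HISAT2 2.2.1, MACS3 3.0.0a7 and the build mm10 (GRCm38), with no role for each, and settings are not given in the sources used here. For each peak the authors deposited a fold enrichment (a ratio of signal to background), a −log10 p, a −log10 q and a score. The score was not used. Whether the background came from the input library is not stated. The largest q was 0.0499.

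Fragments at a summit were recovered as the whole number that matched both the fold enrichment (fragments plus 1 over background plus 1) and the Poisson p, within a relative difference of 1e-05. All 21192 peaks gave a match and 0 gave a second. Tested on 989 peaks simulated with the same formula, the step was right in 100%, which checks the calculation only. Intervals are exact 95% Poisson intervals with the background taken as known, and PCR copies were not told from molecules. Library read totals were not used here.

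Gene spans and upstream sequences came from RefSeq tables of GRCm38.p6. All 10 symbols matched, and 7 had a sequence entry, with the strand. Bmp2, Bmp7 and Fst had none. Sequences were on the strand of the gene, as 513 of 513 overlapping pairs on opposite strands were reverse complements. A summit in overlapping genes was counted for each. The members and gene lists were chosen with earlier results of these data known. Of the other pathway genes, the 3 with the highest fold enrichment in each role, those with the most peaks and those with no peak are named, and 1 gene of that list is not reported here. Python 3.11.15, numpy 2.4.6, pandas 2.3.3, scipy 1.17.1 and matplotlib 3.10.9 were used.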

Additional observations from a re-analysis of the deposited data

How the results depend on the processing

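No paired analysis was possible because there was 1 library in each group. The 7 members with a peak became 4 with a −log10 q of at least 10 (Bmp2, Bmp7, Smad1 and Smad5) and 4 when peaks below the median fold were dropped (Bmp2, Bmp7, Smad1 and Fst), while the share of all protein-coding genes became 17.6% and 20.4%. The 21 member peaks became 9 and 13 under the same filters, by construction. Widening the spans by 1000 bases moved Bmpr2 from 4.33 to 14.2, since the peak before its start was then counted. With the median over peaks in place of the highest, Smad1 stood at 6.15. Bmp4, Bmpr1a and Acvr2a held no peak under the 7 alternatives that changed the peaks counted, also by construction. Most of these alternatives only removed peaks. The nearest summits outside these genes, at 34622 bases or more, were beyond the reach of spans widened by 1000 bases. The median over members ran from 5.87 to 9.79 and the number of other pathway genes with a peak from 24 to 34. Depth limits the values, as member summits held 8 to 55 fragments.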
